A study of Sus scrofa with 4 samples.

Results

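The genes described here are 10 genes of the spindle assembly checkpoint and the Aurora kinase family, namely MAD1L1, MAD2L1, BUB1B, BUB3, CDC20, BUB1, TTK, AURKA, AURKB and AURKC. They were chosen by gene symbol from a table of 30684 genes, of which 16050 hold values, and each of the 10 symbols was found once with values. Expression was measured by RNA sequencing in porcine metaphase II oocytes, in 2 libraries from oocytes matured without added Cu (Control 1 and 2) and 2 libraries from oocytes matured with Cu in the medium (Cu 1 and 3). Each library was made from 3 pooled oocytes by Smart-seq2, which amplifies full-length polyadenylated RNA from a few cells. The oocytes of both groups came from slaughterhouse ovaries and were matured in cumulus-oocyte complexes in the same TCM-199 medium with porcine follicular fluid, EGF, insulin and gonadotropins for 42 to 44 h. The Cu was copper sulfate, and the study's general working concentration was 25 μg/mL. Only matured oocytes were sequenced, so these libraries hold no oocytes that stopped earlier in meiosis. The groups are those of the sample labels, which do not say whether the pools came from separate cultures, so p-values measure only the spread between these libraries, which may be technical. MT1A, a metallothionein that cells induce on copper exposure, was lower in both libraries labelled Cu and MT3 was higher in both. Respiratory chain and antioxidant genes were also measured by PCR in separate oocytes. The study reports the respiratory chain genes as lower after Cu exposure, both by sequencing and by PCR. It reports the antioxidant genes as lower by PCR. In the table, the 4 respiratory chain genes ATP5PF, NDUFB3, NDUFAB1 and NDUFA13 were higher in both libraries labelled Cu than in both labelled Control. Among the 5 antioxidant genes GPX1 was lower in both, and GSR, SOD1, SOD2 and GPX4 overlapped. The respiratory chain genes thus ran opposite to the direction that the study reports for them. Whether the labels of the groups were exchanged was not tested. Control and Cu below therefore mean the libraries labelled so, and every direction rests on those labels.

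The spindle assembly checkpoint delays anaphase until the kinetochores of all chromosomes are attached to spindle microtubules. Unattached kinetochores recruit MAD1, the product of MAD1L1, which presents MAD2 (MAD2L1) for binding to CDC20, and MAD2, BUBR1 (BUB1B) and BUB3 together hold CDC20 away from the anaphase-promoting complex (APC/C), the ubiquitin ligase that starts anaphase. The kinases MPS1 (TTK) and BUB1 start this signal at the kinetochore. Aurora A works at the spindle poles, while Aurora B, and in germ cells its close relative Aurora C, corrects wrong attachments at the centromere as part of the chromosomal passenger complex. A metaphase II oocyte holds a finished second spindle and makes little new RNA, so its transcripts are mostly those stored during growth.

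The deposited values are FPKM, fragment counts scaled to transcript length and to the library total. In this unit levels of different genes can be compared within a library, but only for their polyadenylated RNA. The number of reads is lost in this unit, so how deeply each library was sequenced is unknown. It is also a relative measure, and fewer molecules of one transcript and more of all other RNA per oocyte cannot be told apart. Genes reaching 1 FPKM numbered between 7923 and 8162 in Control 1, Control 2 and Cu 3 and 9364 in Cu 1. Pearson's correlation of log2(FPKM + 1) over 8541 genes, which are not independent replicates, was 0.976 for the Control pair and 0.923 for the Cu pair, while Cu 3 correlated with Control 1 at 0.959 and with Control 2 at 0.965. Cu 1 therefore stood apart from the other 3 libraries, and values without it are given beside the results whose sign it sets. Of 13 oocyte marker genes with values, 12 had 1 FPKM or more in every library. The 14 markers of cumulus and granulosa cells with values summed to between 1.12 and 2.85 FPKM per library with none above 1.43 FPKM, so transcripts of the surrounding somatic cells were near 0 in both groups. AMH was listed at 0 in every library.

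Of the 10 genes, 9 were well expressed in all 4 libraries, and MAD1L1 was not. The levels ran from MAD2L1 at a mean of 1087 FPKM down to MAD1L1 at 0.06 FPKM. In order of mean FPKM over the 4 libraries they ran MAD2L1, AURKA (595 FPKM), AURKC (326 FPKM), BUB1B (227 FPKM), BUB3 (162 FPKM), AURKB (94.0 FPKM), CDC20 (85.5 FPKM), BUB1 (23.9 FPKM), TTK (18.9 FPKM) and MAD1L1. The ranges of MAD2L1 and AURKA met, as did those of AURKC and BUB1B, BUB1B and BUB3, BUB3 and AURKB, and AURKB and CDC20. Within each single library the order was the same for all neighbours except BUB1B and BUB3, and AURKB and CDC20, which kept it in 3 of 4 libraries. AURKA and AURKC, CDC20 and BUB1, BUB1 and TTK, and TTK and MAD1L1 did not overlap in range. MAD2L1 lay between the 98.9th and 99.7th percentile of the genes with values, and AURKA between the 98.9th and 99.2nd.

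**Figure D1:**
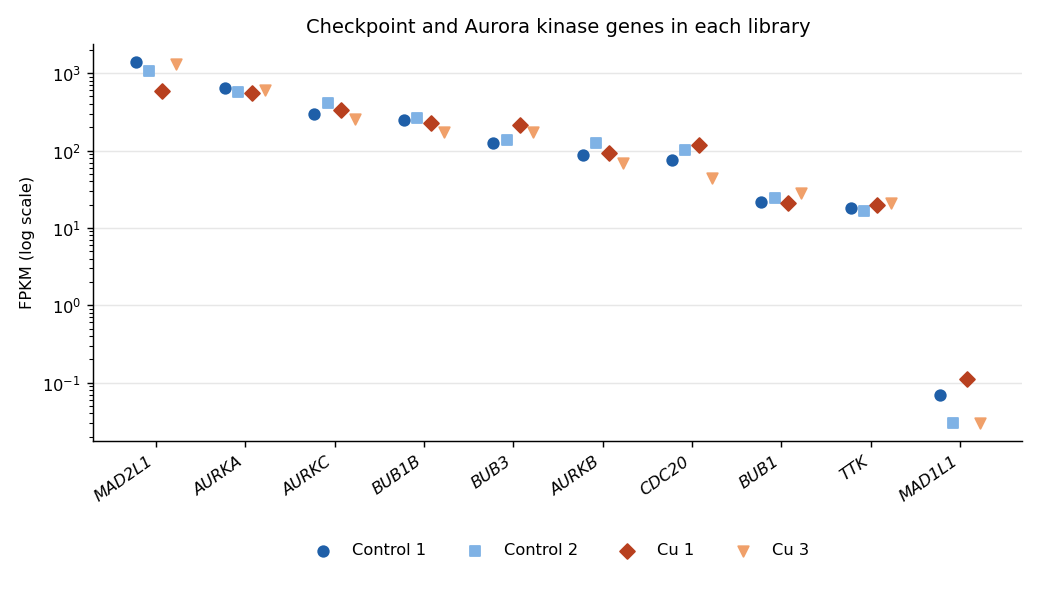
FPKM on a log axis of the 10 genes, ordered by mean level, with 1 point per library (circle and square for Control 1 and 2, diamond and triangle for Cu 1 and 3). The 9 tested genes lie between 16.7 and 1392 FPKM in every library, and MAD1L1 lies at 0.03 to 0.11 FPKM.

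MAD1L1 (gene identifier 102157652, chr3:1236066-1559346 of Sscrofa11.1 in RefSeq), the kinetochore platform for MAD2, had 0.07 (Control 1) and 0.03 FPKM (Control 2) against 0.11 (Cu 1) and 0.03 FPKM (Cu 3). These values are close to the rounding step of 0.01 FPKM, so no difference between the groups could be read from them, and the gene stayed below the minimum for testing. MAD2L1 (100523455, chr8:103927358-103936669), which encodes the MAD2 protein that binds CDC20, had 1392 (Control 1) and 1052 FPKM (Control 2) against 586 (Cu 1) and 1316 FPKM (Cu 3). Cu 3 lay between the Control libraries and Cu 1 lay far below all other libraries, so the groups overlapped. The 3 tested genes whose log2(FPKM + 1) over the 4 libraries was closest to that of MAD2L1 by Euclidean distance were GNG10 (0.57), PSPH (0.58) and TMEM128 (0.67).

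BUB1B (102164975, chr1:131093026-131143840), which encodes BUBR1, the part of the complex that blocks the APC/C together with MAD2, had 247 (Control 1) and 262 FPKM (Control 2) against 227 (Cu 1) and 172 FPKM (Cu 3). The Cu values lay below the Control values without overlap, with Cu 3 the lowest. BUB3 (100156053, chr14:132703088-132715353), the partner that brings BUBR1 and BUB1 to kinetochores, had 124 (Control 1) and 137 FPKM (Control 2) against 211 (Cu 1) and 175 FPKM (Cu 3). Here the Cu values lay above the Control values without overlap. CDC20 (397379, chr6:167886266-167890587), the APC/C activator that the checkpoint holds back, had 76.05 (Control 1) and 103 FPKM (Control 2) against 119 (Cu 1) and 44.2 FPKM (Cu 3). Its highest and its lowest value were both in Cu libraries, and the gap between these was 1.41 on the log2 scale, the widest within any group for the 10 genes.

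The checkpoint kinases were the most weakly expressed of the 9 tested genes and among the steadiest. BUB1 (100627208, chr3:45585188-45623240), the kinase that marks centromeres for shugoshin and recruits checkpoint proteins, had 21.5 (Control 1) and 24.55 FPKM (Control 2) against 21.2 (Cu 1) and 28.3 FPKM (Cu 3). The Control values lay between the Cu values. TTK (100157649, chr1:86076576-86125334), the MPS1 kinase at the start of the signal, had 18.2 (Control 1) and 16.7 FPKM (Control 2) against 19.6 (Cu 1) and 21.0 FPKM (Cu 3). The Cu values again lay above the Control values, within a narrow range of 16.7 to 21.0 FPKM over all 4 libraries.

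Among the Aurora kinases, AURKA (574063, chr17:56954838-56972435), the kinase of the spindle poles, had 649 (Control 1) and 572 FPKM (Control 2) against 553 (Cu 1) and 605 FPKM (Cu 3). AURKC (110261316, chr6:61584575-61588402), the germ cell member of the family, had 300.45 (Control 1) and 409 FPKM (Control 2) against 338 (Cu 1) and 256 FPKM (Cu 3). AURKB (396955, chr12:53410833-53426165), the member of dividing somatic cells, had 87.0 (Control 1) and 127 FPKM (Control 2) against 93.0 (Cu 1) and 69.3 FPKM (Cu 3). In all 3 genes the groups overlapped, and for AURKB and AURKC the highest library was Control 2 and the lowest was Cu 3. AURKB and AURKC are close in sequence, and how reads that fit both were divided was not tested.

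The comparison of Cu with Control asks whether exposure to Cu during maturation went with other levels of checkpoint and Aurora transcripts. By limma, none of the 9 tested genes passed an adjusted p of 0.05, and none passed an unadjusted p of 0.05. Over all 8541 tested genes, 0.0% passed an adjusted p of 0.05 and 7.01% an unadjusted p of 0.05. With a further limit of 1.5 on the log2 fold change, 1.76% passed upward and 0.117% downward, and none of the 9. All fold changes are differences of log2(FPKM + 1), for genes that reached 1 FPKM in 2 or more libraries. BUB3 was nearest to the limit, with a log2 fold change of 0.56 (standard error 0.28, 95% interval -0.12 to 1.23, limma adjusted p = 0.711). MAD2L1 had the largest fold change in the other direction, -0.46 (standard error 0.42, 95% interval -1.497 to 0.57, limma adjusted p = 0.810). AURKB had -0.38, BUB1B -0.36, CDC20 -0.28, AURKC -0.25 and AURKA -0.07, while TTK had 0.21 and BUB1 0.09, with adjusted p between 0.790 and 0.960 in limma's test.

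All 9 intervals of the log2 fold change held 0, and 8 of them lay within 1.5 in either direction, compared with 64.0% of all tested genes. The exception was CDC20, with a 95% interval of -1.52 to 0.96. For AURKA, the most precisely measured, the interval was -0.67 to 0.53 (standard error 0.25), for BUB1 -0.73 to 0.91, for TTK -0.58 to 0.99 and for AURKC -0.99 to 0.49. These are the 4 genes whose interval lay within 1 in either direction. For BUB1B it was -1.04 to 0.32 and for AURKB -1.21 to 0.44.

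**Figure D2:**
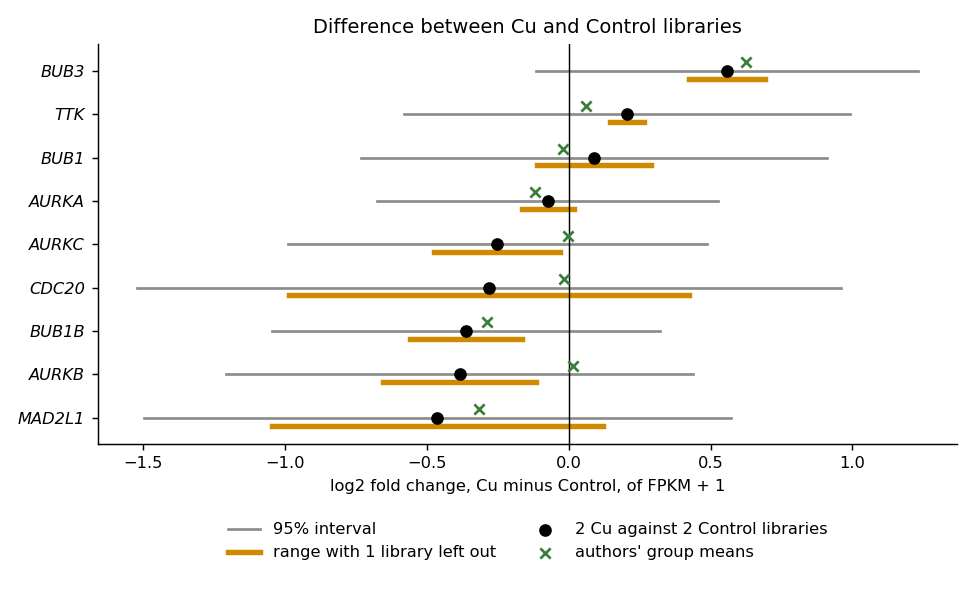
Log2 fold change of FPKM + 1, Cu minus Control, of the 9 tested genes (black point), with its 95% interval in limma's fit (grey line), the range with each library left out in turn (orange line) and the value from the authors' group means (green cross). Every grey line crosses 0, and the orange lines of BUB3, TTK, BUB1B, AURKB and AURKC stay on one side of it.

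The groups were separated upward, with the Cu libraries above the Control libraries, for BUB3 and TTK, 2 of 9 genes, compared with 25.4% of all tested genes. They were separated downward for BUB1B, 1 of 9, compared with 13.4% of all tested genes. Together this was 3 of 9 against 38.8% of all tested genes, a share near that of the whole table. The median log2 fold change of the 9 genes was -0.25 and that of all tested genes was 0.16. Without Cu 1 these medians were -0.009 and 0.002. Of the 9 genes, 3 were positive and 6 negative, where 64.3% of all tested genes were positive. Without Cu 1, 4 of the 9 were positive, against 50.3% of all tested genes. Under quantile normalization, which brought the median of all tested genes to -0.05, the median of the 9 genes was -0.38, BUB1 changed its sign to -0.09, and 1 of 9 genes (BUB3) was separated upward against 16.7% of all tested genes and 3 of 9 (AURKA, AURKB and BUB1B) downward against 22.8%. By the authors' group means, which also cover libraries not analysed singly here, the median of the 9 genes was -0.02.

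For MAD2L1, CDC20 and BUB1, leaving out a single Cu library reversed the direction. MAD2L1 had a log2 fold change of 0.12 without Cu 1 and -1.04 without Cu 3, and in the latter case its adjusted p was 0.0177 in limma's test, where 20.5% of all tested genes passed 0.05. CDC20 had -0.98 without Cu 1 (limma adjusted p = 0.108, where 2.18% of all tested genes passed 0.05) and 0.42 without Cu 3. An unadjusted p of 0.05 was passed by CDC20 alone, 1 of 9, without Cu 1, against 15.5% of all tested genes, and by MAD2L1 and BUB3, 2 of 9, without Cu 3, against 34.6%. BUB1 also changed its sign, with -0.11 without Cu 3 and -0.002 without Control 1, and AURKA had 0.02 without Control 1. With Cu 3 or Cu 1 as the only library of its group, the fit assumes that it varies like the Control pair. In 7 of the 9 genes the gap between the Cu libraries was larger than the size of the fold change, the exceptions being BUB3 and TTK. BUB3 kept its sign throughout, between 0.42 without Cu 1 and 0.69 without Cu 3, as did TTK between 0.14 and 0.27 and BUB1B between -0.56 and -0.16.

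A ratio of FPKM between genes of the same library does not depend on how that library is scaled. Ratios are given from the FPKM, and group differences of log2 ratios after 1 was added to both FPKM. The ratio of BUB1B to BUB3, whose products bind each other, was 1.99 and 1.91 in Control 1 and 2 and 1.07 and 0.98 in Cu 1 and 3. The group difference of the log2 ratio was -0.92, with a pooled SD of 0.069 within groups. For 2 against 2 libraries the smallest p of an exact permutation test, two-sided, is 0.3333, which this ratio reached. The difference lay between -0.98 without Cu 1 and -0.86 without Cu 3, and was -0.91 by the authors' group means, where the ratio was 2.10 for Control and 1.11 for Cu. BUB3 was higher and BUB1B was lower in the Cu libraries.

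Among all 36 pairs of the 9 tested genes, a comparison chosen after the values had been seen, the ratio was separated between the groups in 13 pairs, or 36.1%. All 8 pairs that include BUB3 were among them, with group differences of 0.35 to 1.02 on the log2 scale, always with BUB3 relatively higher in the Cu libraries. These 8 pairs share BUB3 and are not independent of each other. Each group difference is the fold change of one gene minus that of the other. BUB3 had the largest upward fold change of the 9 genes, so the shared direction follows from that value and adds no evidence. A separated pair only reaches the smallest p that the exact permutation test allows here, so separation by chance is common. Of the 28 pairs without BUB3, 5 were separated.

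**Figure D3:**
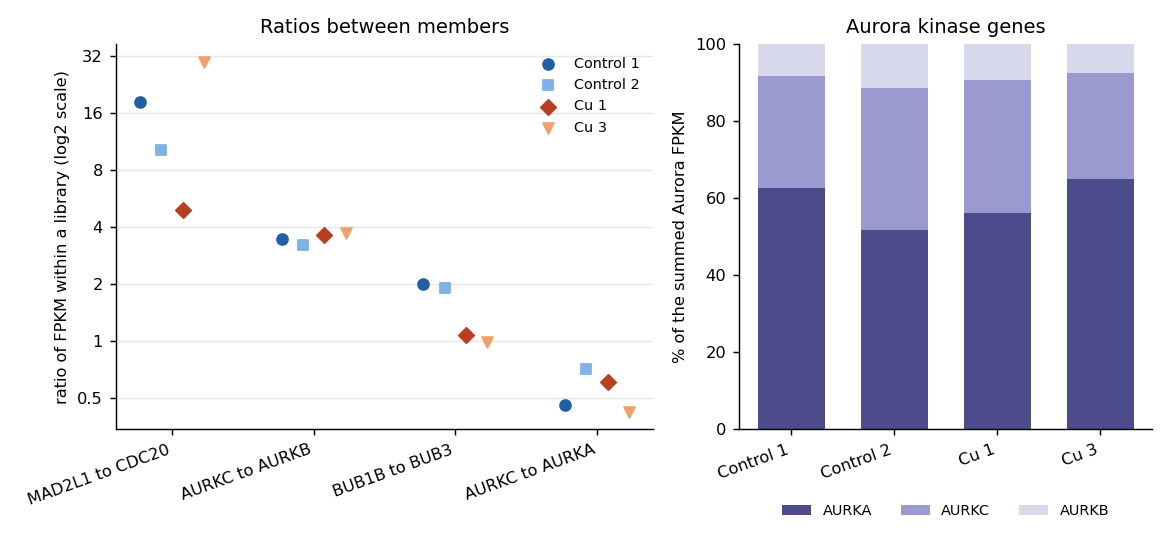
Left, the ratio of FPKM between pairs of genes within each library on a log2 axis, with 1 point per library. Right, the share of each Aurora kinase gene in the summed FPKM of AURKA, AURKB and AURKC in each library, in percent; the BUB1B to BUB3 ratio is near 2 in the Control and near 1 in the Cu libraries, while AURKC to AURKB stays between 3.23 and 3.70.

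The Aurora kinase genes kept a similar make-up. AURKA took 62.6% and 51.6% of the summed Aurora FPKM in Control 1 and 2 and 56.2% and 65.02% in Cu 1 and 3. AURKC took 29.0% and 36.9% in Control 1 and 2 and 34.4% and 27.5% in Cu 1 and 3, and AURKB between 7.44% and 11.4%. The summed Aurora FPKM was 1037 and 1108 in Control 1 and 2 and 984 and 931 in Cu 1 and 3. AURKC was thus the main transcript of the centromeric pair in every library, with a ratio of AURKC to AURKB of 3.45 and 3.23 in Control 1 and 2 and 3.64 and 3.70 in Cu 1 and 3. This ratio had the smallest spread of the 36 pairs, with an SD of 0.086 on the log2 scale over the 4 libraries against a median of 0.43 over all pairs. The Cu ratios exceeded the Control ratios by 0.13 on the log2 scale (exact two-sided permutation p = 0.3333, the smallest possible), but by the authors' group means the difference was -0.02. The ratio of AURKC to AURKA overlapped between the groups, with 0.46 and 0.72 in Control 1 and 2 and 0.61 and 0.42 in Cu 1 and 3.

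The ratio of MAD2L1 to CDC20, the inhibitor and its target, had the largest spread of the 36 pairs. It was 18.3 and 10.2 in Control 1 and 2 and 4.93 and 29.8 in Cu 1 and 3, so that the Cu libraries lay on either side of the Control libraries. The group difference on the log2 scale was -0.18 with a pooled SD of 1.35 (exact two-sided permutation p = 1.0), and it was 1.11 without Cu 1 and -1.47 without Cu 3. The ratio of MAD2L1 to MAD1L1 was not read, since MAD1L1 was too low. Its group difference on the log2 scale was -0.49, or 0.15 without Cu 1.

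Related genes in 5 lists, written from gene symbols, were examined beside these genes. The outer kinetochore is the place where the checkpoint signal is made and where microtubules attach. Of its 17 tested genes, 2 passed an unadjusted p of 0.05 upward and none downward, compared with 5.58% and 1.43% of all tested genes, and none passed an adjusted p of 0.05. The groups were separated upward in 6 genes and downward in 5, against 25.4% and 13.4% of all tested genes, and the list median was 0.02. Without Cu 3, an unadjusted p of 0.05 was passed by 9 of 17 genes, against 34.6% of all tested genes. SKA1 (100157355), a subunit of the complex that holds kinetochores on shortening microtubules and by its mean over the 4 libraries the list's most abundant gene, had 47.8 (Control 1) and 113 FPKM (Control 2) against 461 (Cu 1) and 403 FPKM (Cu 3). The log2 fold change of SKA1 was 2.53 (standard error 0.44, limma adjusted p = 0.631). NDC80 and NUF2 were above SKA1 in both Control libraries. The fold change of SKA1 lay between 1.92 and 3.14 with each library left out. It was 2.44 without Cu 1, 2.63 without Cu 3, 1.92 without Control 1 and 3.14 without Control 2. The other SKA genes differed less, with 0.77 for SKA2 and 0.45 for SKA3 on the log2 scale, both separated upward. SKA3 was near the minimum for testing, with 0.82 (Control 1) and 0.92 FPKM (Control 2) against 1.86 (Cu 1) and 1.27 FPKM (Cu 3).

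SPC25 (100517976), a subunit of the NDC80 complex that binds microtubules, had 17.2 (Control 1) and 35.97 FPKM (Control 2) against 58.8 (Cu 1) and 98.1 FPKM (Cu 3). SPC25 had a fold change of 1.57 on the log2 scale (standard error 0.47, limma adjusted p = 0.641), between 1.06 and 2.08 with each library left out. The lowest of these values was that without Control 1 and the highest that without Control 2. The other subunits of that complex had 0.71 for SPC24, -0.36 for NUF2 and -0.69 for NDC80, and 0.11, 0.10 and -0.29 without Cu 1. NDC80 was separated downward, and for SPC24 and NUF2 the groups overlapped. The log2 fold change of KNL1, the scaffold on which BUB1 and BUB3 assemble, was -0.44 with overlapping groups, and 0.12 without Cu 1.

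**Figure D4:**
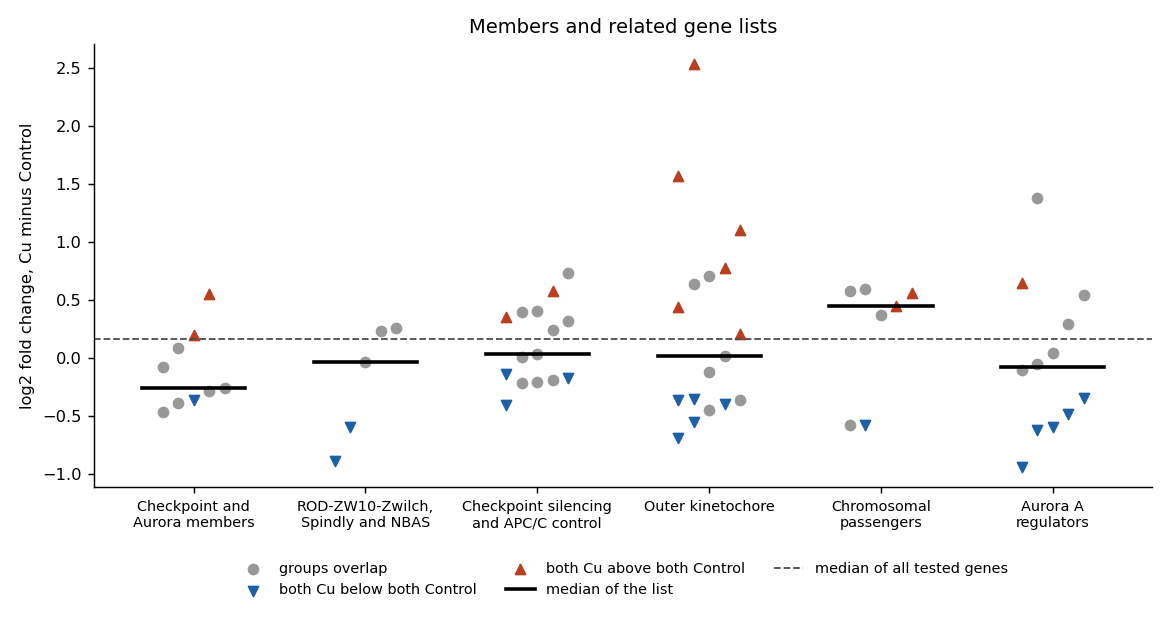
Log2 fold change, Cu minus Control, of each tested gene among the 9 checkpoint and Aurora genes and in 5 lists of related genes; triangles mark genes whose groups do not overlap, black bars the median of each list and the dashed line the median of all tested genes (0.16). The outer kinetochore list has the widest spread, from -0.69 to 2.53, while the checkpoint and Aurora genes lie between -0.46 and 0.56.

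The 12 tested regulators of Aurora A included 1 gene past an unadjusted p of 0.05, downward, against 1.43% of all tested genes. BORA (100622008), which activates Aurora A and with it PLK1, had 83.3 (Control 1) and 71.3 FPKM (Control 2) against 37.5 (Cu 1) and 42.2 FPKM (Cu 3). BORA had a fold change of -0.94 on the log2 scale (standard error 0.30, limma adjusted p = 0.652), between -1.05 and -0.82 with each library left out. By the authors' group means BORA differed less, with 63.9 FPKM for Control and 45.9 FPKM for Cu. That Control mean lay below both Control libraries analysed here. Its fold change was smallest in size without Control 1 and largest without Control 2. The list was separated downward in 5 of 12 genes and upward in 1, against 13.4% and 25.4% of all tested genes, with a median of -0.08. Without Cu 3, 6 genes passed an unadjusted p of 0.05, against 34.6% of all tested genes. PPP6C, the catalytic subunit of the phosphatase that switches Aurora A off and the most abundant of the list, had 373 (Control 1) and 316 FPKM (Control 2) against 195 (Cu 1) and 313 FPKM (Cu 3). Cu 3 was barely below Control 2, and the fold change of PPP6C was -0.48 on the log2 scale (standard error 0.32), or -0.14 without Cu 1. By the authors' group means PPP6C differed little, with 301 FPKM for Control and 294 FPKM for Cu. TPX2, the main spindle activator of Aurora A, had a log2 fold change of -0.10 and PLK1 of 0.29, both with overlapping groups, and without Cu 1 these were 0.08 and -0.64.

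None of the 7 tested genes around the chromosomal passenger complex passed an unadjusted p of 0.05 in limma's test. The fold changes of its subunits were 0.57 for BIRC5, separated upward, and 0.58 for INCENP and 0.38 for CDCA8 with overlapping groups, which without Cu 1 were -0.09 and -0.01. INCENP had 3.74 (Control 1) and 4.44 FPKM (Control 2) against 11.08 (Cu 1) and 3.76 FPKM (Cu 3), so that Cu 1 alone was high. Of the 7 genes, 2 were separated upward and 1 downward, against 25.4% and 13.4% of all tested genes. The downward one was KIF20A, with a log2 fold change of -0.57. The list median was 0.45, and -0.04 without Cu 1. Without Cu 3, an unadjusted p of 0.05 was passed by 4 of 7 genes, against 34.6% of all tested genes. KIF20B, the most abundant of the list and a mitotic kinesin, had 176 (Control 1) and 123 FPKM (Control 2) against 75.03 (Cu 1) and 129.68 FPKM (Cu 3), and its fold change on the log2 scale was -0.57 (standard error 0.38), or -0.18 without Cu 1. HASPIN, the kinase that marks the centromere for the complex, was below the minimum for testing.

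None of the 5 genes listed around ZW10, which are those of the ROD-ZW10-Zwilch complex and Spindly, which load MAD1 and dynein on kinetochores, and NBAS, a partner of ZW10 at the endoplasmic reticulum, and none of the 15 tested genes of checkpoint silencing and APC/C control passed an unadjusted p of 0.05 in limma's test. ZWILCH had 186 (Control 1) and 150.4 FPKM (Control 2) against 59.6 (Cu 1) and 137 FPKM (Cu 3), and its fold change on the log2 scale was -0.88 (standard error 0.44), with -0.29 without Cu 1 and -1.47 without Cu 3, where its limma adjusted p was 0.0023 and 20.5% of all tested genes passed 0.05. ZWILCH and NBAS were separated downward, 2 of 5 against 13.4% of all tested genes, and none of the 5 upward. By the authors' group means ZWILCH differed little, with 136.9 FPKM for Control and 130.8 FPKM for Cu. NBAS had 21.9 FPKM for Control and 13.2 FPKM for Cu by those means. The list median was -0.03, and 0.009 without Cu 1. In the silencing list 2 of 15 genes were separated upward and 3 downward, against 25.4% and 13.4% of all tested genes, with a median of 0.04, and -0.12 without Cu 1. Without Cu 3, 7 genes passed an unadjusted p of 0.05, against 34.6% of all tested genes. MAD2L1BP, which takes MAD2 out of the checkpoint complex, was separated upward with a log2 fold change of 0.58, while TRIP13, the ATPase that works with it, had 0.25 with overlapping groups, and -0.33 without Cu 1. PPP2CA, a catalytic subunit of PP2A and the most abundant of this list, had 202 (Control 1) and 274 FPKM (Control 2) against 192 (Cu 1) and 218 FPKM (Cu 3), and its fold change on the log2 scale was -0.20 (standard error 0.29).

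**Figure D5:**
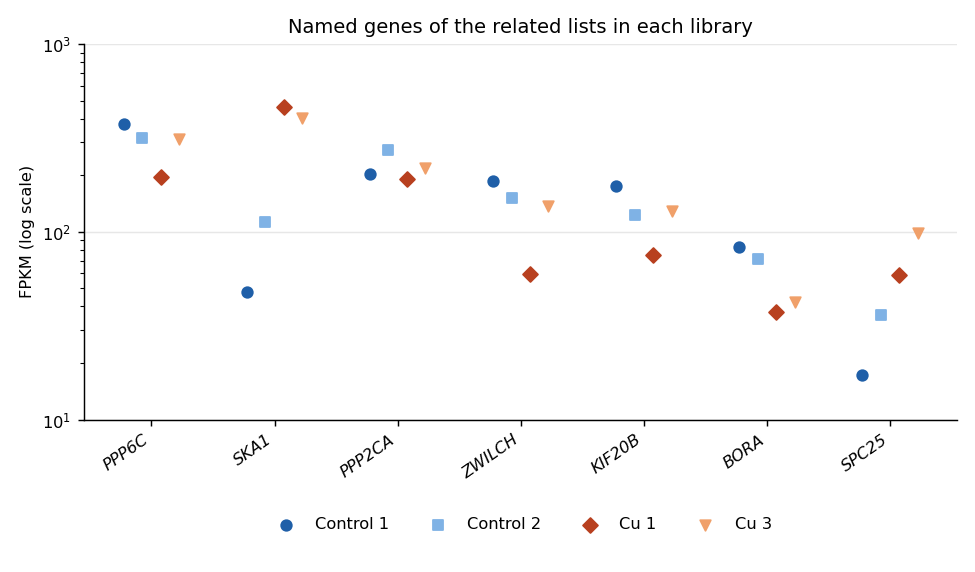
FPKM on a log axis of the 7 genes named by rule from the related lists, with 1 point per library. SKA1 and SPC25 are higher and BORA is lower in both Cu libraries. For PPP6C, ZWILCH, KIF20B and, by a small margin, PPP2CA the Cu 1 library lies below the other 3 libraries.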

How the data were processed

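RNA sequencing values of 4 libraries of porcine oocytes were analysed, 2 Control and 2 Cu. The authors deposited FPKM rounded to 2 decimals, with the authors' mean FPKM of each group, used only as such. The study's methods name SOAPnuke, HISAT2, Bowtie2 and RSEM, whereas the submitters' processing notes list TopHat2 2.0.13 and Cufflinks 2.2.1 with the build Sscrofa11.1, so the source of the FPKM is not settled. Positions are those of RefSeq for Sscrofa11.1, matched by gene identifier. Groups were compared on log2(FPKM + 1) with limma 3.58.1 in R 4.3.3 (lmFit, eBayes with a variance trend, Benjamini-Hochberg adjustment over 8541 genes), after a test on simulated data. DESeq2 was not used, since it needs counts. Values go down to the rounding step of 0.01, so read numbers and depth could not be derived.

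Members and lists were chosen with earlier results of these data known. Beside the 10 genes, the text names in each related list the most abundant tested gene and up to 3 with the smallest p below 0.05 and separated groups; other genes of the lists were named after their values were seen. The lists of oocyte and of cumulus and granulosa markers and of copper-responsive genes were used as checks, and the genes that the study measured by PCR were added to them after the values were seen. Alternatives were a pseudocount of 0.1, other filters, 3 scalings, no variance trend, each library left out and the authors' means.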

Additional observations from a re-analysis of the deposited data

How the results depend on the processing

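No paired analysis was possible because the groups share only replicate number 1. Precision is limited by 2 libraries per group and unknown depth. The signs and sides of the threshold of MAD2L1, BUB1B, BUB3, CDC20, TTK, AURKA and AURKC held under the other pseudocount, filters, scalings, a fit with no variance trend, and (signs only) the authors' means; the exceptions were BUB1, with -0.090 after quantile normalization, -0.081 after upper-quartile scaling, -0.079 after median-of-ratios scaling and -0.020 by the authors' means, and AURKB, with 0.015 by those means. Some of the signs that held rest on very small values. By the authors' means CDC20 had -0.017 and AURKC -0.0013. TTK had 0.032 after quantile normalization, 0.036 after upper-quartile and 0.037 after median-of-ratios scaling, with overlapping groups. Where a value moved, the cause was not tested unless a setting's construction shows it.

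With 1 library left out, the range was -1.04 to 0.12 for MAD2L1, -0.98 to 0.42 for CDC20, -0.11 to 0.29 for BUB1 (-0.0019 without Control 1) and -0.17 to 0.017 for AURKA. In these fits 3 to 4 members were separated downward, but so were 1669 to 3168 of the 8541 tested genes, against 1145 with all 4 libraries. The scalings each gave 1 member separated upward and 3 downward. Of all tested genes, they gave 1424 to 1644 upward and 1689 to 1949 downward. The member median was -0.38 after quantile normalization and -0.43 after either other scaling, -0.16 with no filter, which adds MAD1L1, -0.017 by the authors' means, and -0.26 to -0.0094 with 1 library left out.

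Over all genes, 0 to 1755 passed an adjusted p of 0.05 with 1 library left out, 186 without Cu 1 and 1755 without Cu 3. At an unadjusted p of 0.05 with a fold change limit of 1.5 (log2) there were 150 higher and 10 lower, 77 to 741 and 11 to 41 with 1 library left out, 246 and 24 with a pseudocount of 0.1, and 375 and 55 with a limit of 1. Each scaling gave 20 lower genes. The shift of the median of all genes was from 0.16 to 0.01 under upper-quartile or median-of-ratios scaling, and the share of genes with a positive value fell from 64.3% to 45.8% under quantile normalization.

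With 1 library left out, the genes past an unadjusted p of 0.05 were 0 to 1 for the list around ZW10, 0 to 7 for silencing, 1 to 9 for the outer kinetochore, 0 to 4 for the passenger list and 0 to 6 for the Aurora A regulators, the highest each time without Cu 3. Quantile normalization and upper-quartile scaling gave 2 for the Aurora A regulators. The same lists had medians of -0.17 to 0.08, -0.12 to 0.31, -0.19 to 0.16, -0.041 to 0.68 and -0.36 to -0.012. After upper-quartile and median-of-ratios scaling the median was -0.21 for both in the list around ZW10, -0.144 and -0.142 in the outer kinetochore and -0.236 and -0.234 in the Aurora A regulators. After quantile normalization it was -0.23 in the outer kinetochore and -0.29 in the Aurora A regulators. The outer kinetochore had -0.11 with 1 FPKM in every library, and the Aurora A regulators had -0.0095 with no filter and -0.038 by the authors' means. The log2 ratio difference of AURKC to AURKB was -0.017 by the authors' means.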

Other observations

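Of the copper-responsive and copper-transport genes listed as a check, MT1A, a metallothionein, read 5.97 and 7.0 FPKM in the Control libraries against 3.31 (Cu 1) and 4.44 FPKM (Cu 3). MT3, another metallothionein, read 8.10 (Control 1) and 1.91 FPKM (Control 2) against 19.6 (Cu 1) and 9.87 FPKM (Cu 3), whereas MT1D overlapped between the groups. SLC30A1, a zinc exporter that responds to metals, read 1.03 and 1.09 FPKM in the Control libraries against 1.58 (Cu 1) and 1.85 FPKM (Cu 3). None of the 6 listed genes with values passed an unadjusted limit of 0.05 in limma's test, and 2 were separated upward and 1 downward, against 25.4% and 13.4% of all tested genes.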
